A study of Mus musculus with 6 samples.

Results

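The exons described here belong to 7 mouse genes whose products bind microtubules or control proteins that do: Mapt, Map2, Mark2, Clasp1, Clasp2, Nav1 and Camsap1. They were chosen by their presence in the deposited lists of splicing events that differed between SFPQ knockdown and control. A listed interval was taken when it lay within the locus of one of these genes and matched annotated exon edges. The rule gave 9 intervals out of 643 distinct listed events, and all 9 were cassette exons (exons that are spliced in or left out whole), out of 439 distinct cassette events. No other listed event overlapped the 7 loci. Since being listed is what selected these exons, it is given as a description and carries no test.

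The RNA came from P19 cells, an established mouse embryonal carcinoma line used as a stem cell model. The 3 knockdown samples had been transfected with small interfering RNA against Sfpq, a nuclear RNA-binding protein with known roles in splicing and in paraspeckles, and the 3 control samples with a control siRNA, as the study's methods describe. The labels name no other treatment, and the material is 1 undifferentiated line, and neurons, where many of these genes are best known, were not sampled. The study sequenced this RNA to check whether Sfpq affects microRNA targeting by way of alternative splicing or polyadenylation. It reported no splicing event under Sfpq control in the 3′UTRs where it found that Sfpq promotes such targeting. The outcome of the splicing comparison was deposited as 3 lists, 1 for each replicate number. They hold the place and kind of each event and neither reads, inclusion levels nor direction. The depth behind an exon is therefore unknown, no exon can be called more included or more skipped in knockdown cells, and the knockdown of Sfpq itself could not be checked from these positions.

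Microtubules are hollow polymers of tubulin with a fast-growing plus end and a minus end that is often anchored or capped. Structural proteins such as tau, the product of Mapt, and MAP2 lie along the polymer and stabilise it through a tandem array of repeats, and kinases of the MARK family phosphorylate these repeats and release the proteins from the microtubule. CLASP proteins and neuron navigators act at growing plus ends, and CAMSAP proteins hold the minus ends of microtubules that are not attached to a centrosome. Many genes of the neuronal cytoskeleton carry very short alternative exons, called microexons, that add a few amino acids without moving the reading frame.

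The sequences of the 7 coding exons outside Mapt are given 5′ to 3′ on the transcribed strand, as the GENCODE reference holds them, because the frame, the length and the comparison with related genes described further on are all read from them.
Mark2, 27 nt: aaatctgtctttcaggtttgccagaag
Clasp1, 27 nt: gatccagatctgctaaccctgctggtg
Clasp2, 63 nt: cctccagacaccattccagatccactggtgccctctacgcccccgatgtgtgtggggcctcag
Clasp2, 24 nt: ctcttaggagacatacggactaag
Nav1, 24 nt: gctgaggagaggatgcaatctgag
Camsap1, 60 nt: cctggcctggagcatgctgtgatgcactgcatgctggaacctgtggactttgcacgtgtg
Camsap1, 33 nt: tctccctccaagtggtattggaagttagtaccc

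The Mark2 exon was the only one of the 9 that stood in all 3 lists, and the Nav1 exon, in lists 2 and 3, was the only one in exactly 2. The other 7 exons stood in 1 list each. Thus 2 of the 9 exons stood in more than 1 list, where 19.6% of all 643 listed events did. List 1 held 5 of the exons (Mapt, Map2, Mark2, Clasp1 and the 24-nt exon of Clasp2), list 2 held 5 (Mark2, the 63-nt exon of Clasp2, Nav1 and both exons of Camsap1) and list 3 held 2 (Mark2 and Nav1). Clasp2 was the third gene found in more than 1 list, but through a different exon in each. Without list 1, the exons numbered 5 in 4 genes, since Mapt, Map2 and Clasp1 rested on that list alone. Without list 2 there were 6 exons in 6 genes, and Camsap1 was lost.

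**Figure D1:**
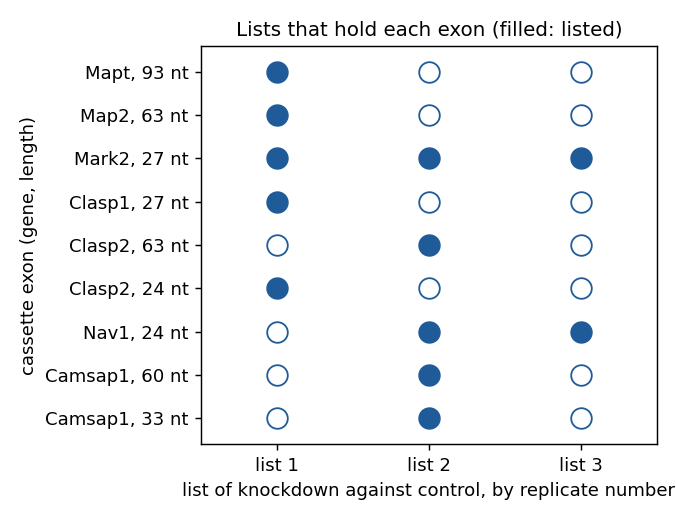
Presence of each of the 9 cassette exons (rows, named by gene and length in nucleotides) in the 3 lists of knockdown against control (columns, by replicate number). A filled circle is a listed exon and an open circle one that the list does not hold. The Mark2 exon is filled in all 3 columns, the Nav1 exon in lists 2 and 3, and every other exon in 1 column.

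Among the structural proteins, Mapt had 1 listed exon of 93 nt in list 1 (gene ENSMUSG00000018411.17). Mapt codes for tau, the microtubule-associated protein of axons. The exon was coding, was the longest of the 9 exons, added 31 codons and began at a codon boundary. Of the 8 annotated coding transcripts of Mapt, 5 held the exon, 3 did not reach it and 0 skipped it. A skipped form that is missing from the annotation may still exist. No other exon among the 9 lacked an annotated coding transcript with exons on both sides and none over it. For 7 of the 9 such a transcript joined the neighbouring exons directly, and the 24-nt exon of Clasp2 was not among these.

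Map2 had 1 listed exon of 63 nt at chr1:66193119-66193181 (mm10, plus strand, list 1), exon 2 of 15 in Map2-206 (gene ENSMUSG00000015222.17). MAP2 is the dendritic relative of tau. Here the listed exon lay in the 5′UTR, ahead of the start codon, and was the only one of the 9 that was not coding. Only 3 of the 16 annotated coding transcripts spanned the position, of which 2 held the exon and 1 skipped it, and the other 13 did not reach it.

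Mark2 codes for a kinase that phosphorylates tau, MAP2 and MAP4 in their repeats and is also known as a cell polarity kinase, Par-1. Its listed exon had 27 nt, at chr19:7279986-7280012 (minus strand, lists 1, 2 and 3), and was exon 17 of 19 in Mark2-221 (gene ENSMUSG00000024969.15). It adds the length of 9 codons and began after the second base of a codon. Among the 17 annotated coding transcripts, 6 held the exon, 6 skipped it by joining the exons on either side, 1 had another exon over it (Mark2-219) and 4 did not reach it. After the exon the transcripts that held it continued into 3 different next exons, counted by their annotated edges. Next exons that share a start and differ only in their end count as different here. None of the 18 internal coding exons of Mark2 was shorter, and the shortest of its other 17 had 45 nt.

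At the plus end, Clasp1 and Clasp2 code for the CLIP-associating proteins, which promote rescue of shrinking microtubules and tie plus ends to the cell cortex. The Clasp1 exon had 27 nt, at chr1:118523321-118523347 (plus strand, list 1), and was exon 22 of 42 in Clasp1-218 (gene ENSMUSG00000064302.13). It began after the first base of a codon, and of 16 coding transcripts 10 held it, 5 skipped it directly and 1 did not reach it. Clasp1 has many small exons, and 4 of its 46 internal coding exons were shorter still.

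Clasp2 (gene ENSMUSG00000033392.16, plus strand) had 2 listed exons, which lay 3422 nt apart. The exon of 63 nt, at chr9:113875265-113875327 (list 2), was exon 18 of 34 in Clasp2-202. It was held by 1 of the 6 coding transcripts and skipped by 4, of which 3 joined the exons on either side. The exon of 24 nt, at chr9:113878750-113878773 (list 1), was exon 21 of 35 in Clasp2-207. It was held by 4 and skipped by 1, which did not join the exons on either side. Transcripts in an annotation are not weighted by abundance, so these counts say which forms are annotated. They do not say which other forms exist or how common any form is in P19 cells. In whole transcripts, 1 of the 6 held both exons, 0 the 63-nt exon alone, 3 the 24-nt exon alone and 2 neither. The 2 exons together come to 87 nt and leave the frame unchanged, singly or jointly.

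Nav1, a neuron navigator that tracks plus ends and is known from growing axons, had 1 listed exon of 24 nt at chr1:135463915-135463938 (minus strand, lists 2 and 3), exon 13 of 30 in Nav1-207 (gene ENSMUSG00000009418.15). It adds 8 codons from a codon boundary, and of the 4 coding transcripts 3 held it and 1 skipped it. Its downstream intron of 115 nt was the shortest of the 18 intron lengths read beside the 9 exons. With the 24-nt exon of Clasp2 it was the shortest exon of the 9.

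At the minus end, Camsap1 (gene ENSMUSG00000026933.17, minus strand) codes for a CAMSAP protein that binds free minus ends, and it also had 2 listed exons, both in list 2. The exon of 33 nt lay at chr2:25955260-25955292 and the exon of 60 nt at chr2:25953915-25953974, so that they stood 1285 nt apart in one intron, between exons of 81 and 142 nt. Each was held by 1 of the 8 coding transcripts, Camsap1-204 for the shorter (exon 4 of 7) and Camsap1-205 for the longer (exon 5 of 12). None of the annotated coding transcripts held both and 6 held neither, of which 1 (Camsap1-211) had a different exon over the 60-nt position. Both exons began at a codon boundary, and they add 11 and 20 codons.

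**Figure D2:**
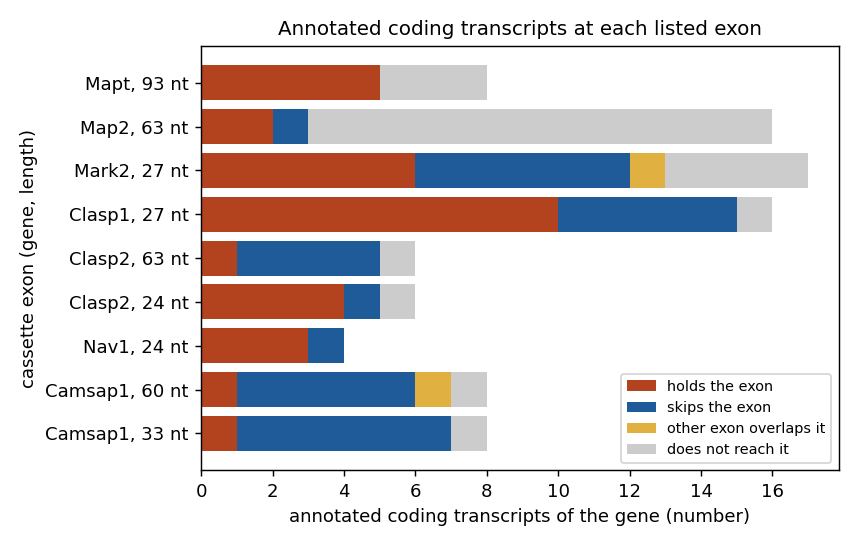
Annotated coding transcripts of each gene (x axis, number) at the 9 listed exons (rows), divided into those that hold the exon, skip it, have another exon over it or do not reach it. Mark2 has as many transcripts that hold the exon as skip it (6 each), Mapt has 0 that skip it, and the 63-nt exon of Clasp2 and both Camsap1 exons are skipped by more transcripts than hold them.

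The 9 exons had in common a length divisible by 3, whichever gene they came from. All 9 were so, and the 8 coding ones therefore add or remove whole codons, with 0 in-frame stop codons among the whole codons they hold. Among the other 430 listed cassette exons, 261 (60.7%) had such a length, and among the 264 of these that were fully coding 206 (78%) did. In the same genes 82 of 176 other internal coding exons (46.6%) were divisible by 3, beside 41.1% over all multi-exon protein-coding genes. The 5 exons that remain without list 1 and the 6 that remain without list 2 are parts of the 9 listed exons, so they add nothing on this point. In codon phase 5 of the 8 coding exons began at a codon boundary.

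The exons were also short. Their lengths ran from 24 to 93 nt with a median of 33 nt, beside a median of 81 nt (6 to 3448 nt) for the other listed cassette exons and 112.5 nt (3 to 3741 nt) for the other internal coding exons of the 7 genes. Mark2, Clasp1, Clasp2 and Nav1 each supplied 1 exon of at most 30 nt, so 4 of 9 (44.4%) fell in that class. The share was 13.3% among the other listed cassette exons, 6.25% among the remaining internal coding exons of the 7 genes and 1.33% over all internal coding exons. Among fully coding exons alone, 4 of the 8 (50%) had at most 30 nt and the median was 30 nt, beside 19.7% and a median of 69 nt for the 264 other listed ones. Without list 1 the class held 2 exons, those of Mark2 and Nav1. These are descriptions of a chosen set and were not tested.

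**Figure D3:**
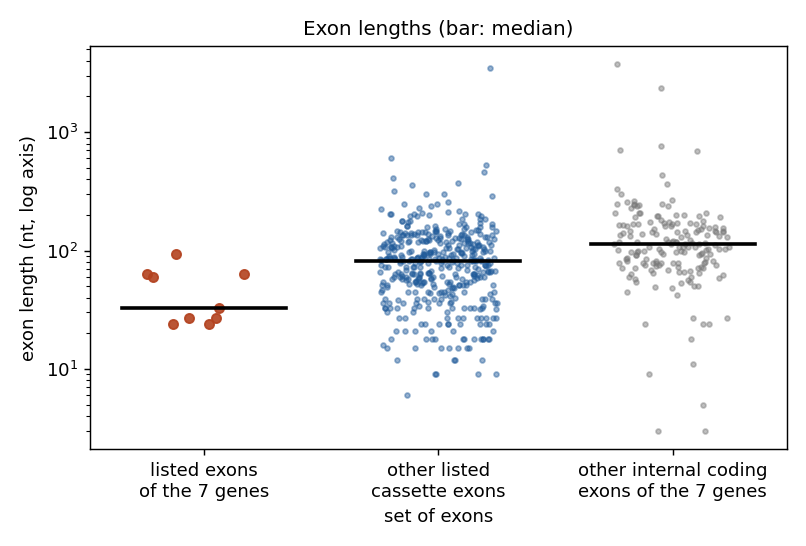
Lengths of the 9 listed exons of the 7 genes, of the other 430 listed cassette exons and of 176 further internal coding exons in those genes (y axis, nucleotides, log scale). Each point is 1 exon, spread sideways for legibility, and the bar is the median of the set (33, 81 and 112.5 nt).

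The introns beside the exons varied widely. They had a median of 1924 nt over all 18, and they ran from 115 nt downstream of the Nav1 exon to 58480 nt downstream of the Map2 exon. These lengths were read in 1 transcript per exon. At Camsap1 they overlap, since both listed exons lie in one intron. They were 954 and 2440 nt beside the 33-nt exon and 2272 and 1095 nt beside the 60-nt exon. The 18 lengths are therefore not all of separate introns. When the nearest annotated exon of any transcript was used, the distance downstream of the Map2 exon was 1990 nt and the median 1285 nt. The other 221 introns of the 7 genes had a median of 2244 nt and ran from 82 to 70691 nt. Upstream introns had a median of 2272 nt and downstream introns one of 1899 nt, with ranges that overlapped. Base composition varied as well, from 40.7% G and C in the Mark2 exon to 63.5% in the 63-nt exon of Clasp2.

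The 7 coding exons outside Mapt were also set beside exons of related genes, and most had a counterpart of the same length there. In each case the exon was compared, base for base and with no gaps, with all internal coding exons of equal length in the related genes. For 6 of the 7 exons (85.7%) a related gene had an equal-length exon that was at least 60% identical, beside 72 of 149 (48.3%) other internal coding exons of the 5 genes. The 60-nt exon of Camsap1 had none of equal length. At a limit of 70% identity the counts were 5 of 7 and 46 of 149. The Map2 exon, which lies in the 5′UTR, was not compared. None of these related exons stood in any of the 3 lists, although Clasp1 and Clasp2 did have other exons listed. The related exons follow 5′ to 3′, with capitals at the bases that differ from the listed exon.
Mark3, for Mark2 27 nt: aaaCAtgtcAttcaggtttATcaAaag
Clasp2, for Clasp1 27 nt: gatcACAatctgctaaTAcCATtggtg
Clasp1, for Clasp2 63 nt: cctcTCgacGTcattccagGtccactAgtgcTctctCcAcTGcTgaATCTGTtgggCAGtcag
Clasp1, for Clasp2 24 nt: ctGttaggagacGCCAggaGCaag
Nav3, for Nav1 24 nt: gctgaAgagaAgGCTcaTtcAgag
Camsap2, for Camsap1 33 nt: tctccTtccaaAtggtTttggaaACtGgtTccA

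Of these, the Mark3 exon was the closest in sequence. MARK3 is another kinase of the MARK family, and its exon, at chr12:111651958-111651984 (plus strand, exon 16 of 18), matched the Mark2 exon at 21 of 27 bases (77.8%), began in the same phase and was skipped by 3 of 4 annotated coding transcripts. The exons before and after it had 258 and 45 nt, the same lengths as in Mark2. The most alike 27-nt exon of any other gene matched at 59.3%, out of 312. Mark1 and Mark4 had no internal coding exon of that length.

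The Clasp pair is related in both directions. The Clasp1 exon matched an exon of Clasp2 at 19 of 27 bases (70.4%, chr9:113865086-113865112), the 63-nt exon of Clasp2 matched one of Clasp1 at 42 of 63 (66.7%, chr1:118536135-118536197), and the 24-nt exon matched one of Clasp1 at 17 of 24 (70.8%, chr1:118541675-118541698). Phases were equal in all 3 cases, but the neighbouring exons were of equal length on 1 side at most. The 27-nt exon of Clasp2 lay between exons of 27 and 171 nt, against 108 and 159 nt around its match in Clasp1. The 63-nt exon of Clasp1 lay between exons of 108 and 117 nt, against 108 and 107 nt in Clasp2, and the 24-nt exon of Clasp1 between exons of 104 and 245 nt, against 107 and 245 nt in Clasp2. Each of the matched exons is itself skipped by annotated coding transcripts, 4 of 6 for Clasp2 and 12 and 5 of 16 for Clasp1. In other genes the most alike exons of those lengths reached 51.9%, 44.4% and 58.3%.

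Nav3, another neuron navigator, had a 24-nt exon that matched that of Nav1 at 17 of 24 bases (70.8%, chr10:109747194-109747217), between neighbours of 53 and 78 nt as in Nav1. For Nav2 the match was 13 of 24 (54.2%), which 3 of 188 exons of that length in other genes equalled or passed, and its neighbours had 53 and 75 nt. Neither the Nav2 nor the Nav3 exon was skipped by an annotated coding transcript, although Nav3 has only 1 such transcript. Camsap2 matched the 33-nt exon of Camsap1 at 25 of 33 bases (75.8%, chr1:136297284-136297316) and Camsap3 at 21 of 33 (63.6%, chr8:3599217-3599249), beside 42.4% for the most alike exon of any other gene. The neighbours had 84 and 142 nt in Camsap2 and 96 and 48 nt in Camsap3, against 81 and 142 nt in Camsap1. Each of these was skipped by some annotated transcripts, 2 of 4 in Camsap2 and 5 of 9 in Camsap3.

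**Figure D4:**
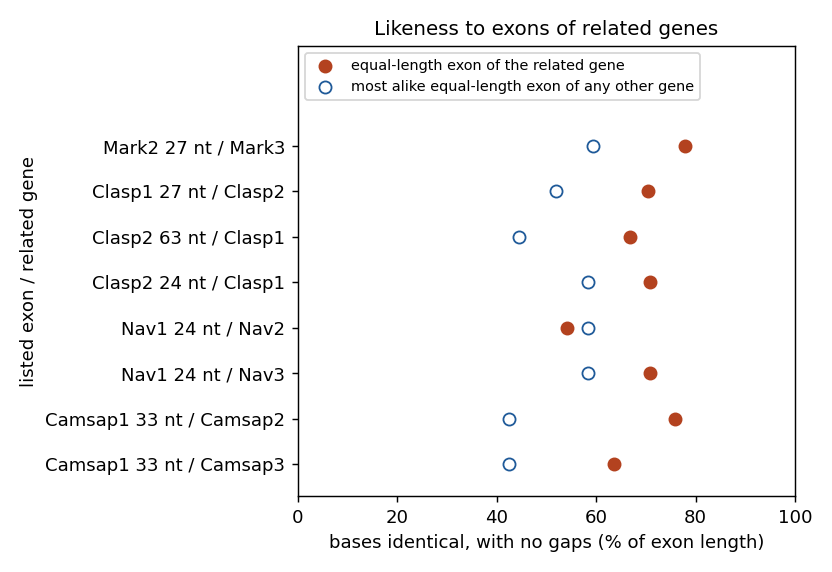
Identity without gaps between the listed coding exons outside Mapt and the equal-length exon of a related gene (filled circles, % of exon length), and the most alike equal-length internal coding exon of any other gene (open circles). The filled circle lies to the right of the open one in every row except Nav1 against Nav2 (54.2% beside 58.3%).

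The wider family of microtubule genes was read from a list of 110 genes. Of these 17 (15.5%) had at least 1 listed event, where 2.81% of all multi-exon protein-coding genes did. The 7 genes above were chosen for having events and raise that share by construction, and of the other 103 genes 10 (9.71%) had one. The 110 genes were themselves picked with earlier results of these data known, so the share of the other 103 is not free of that choice. The genes of the list have more exons than most (median 14 exons for the other 103, 19 for the 7 and 8 for all multi-exon protein-coding genes), as do all genes with a listed event (median 14), and the part of exon number in these shares was not tested.

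By role and without the 7 chosen genes, events stood in 1 of 20 structural genes, 1 of 23 plus-end genes, 2 of 9 minus-end and nucleation genes, 0 of 10 kinases, 2 of 11 severing and destabilizing genes, 4 of 18 tubulin-modifying genes and 0 of 12 tubulins. Mid1, a microtubule-bound ubiquitin ligase, had an alternative acceptor site of 39 nt, and Dctn1, the largest subunit of the dynactin complex, had a cassette exon of 15 nt (exon 27 of 32, coding). Nin, which anchors microtubules at the centrosome, had one of 61 nt, and Tubgcp4, a subunit of the γ-tubulin ring complex, one of 136 nt.

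The remaining events lay in genes that cut or modify the polymer. The severing enzyme gene Spast had an alternative acceptor site of 3 nt and its relative Fignl1 an alternative donor site of 10 nt. Among enzymes that act on tubulin tails, the glutamylases Ttll5 and Ttll7 had cassette exons of 123 and 75 nt, and the deglutamylase Agbl5 had a cassette exon of 87 nt and an alternative acceptor site of 91 nt. The acetyltransferase gene Atat1 had a cassette exon of 80 nt. In all, the 10 other genes had 11 events, of which 7 were cassette exons, and 0 of the 11 stood in more than 1 list. Of these 7 cassette exons 4 were divisible by 3 and 1 had at most 30 nt, beside 9 and 4 of the 9 exons described above.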

How the data were processed

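RNA from P19 cells (3 SFPQ knockdown and 3 control samples, with groups and numbers from the labels) had been sequenced as paired ends. The submitters' notes list STAR, Bowtie2, cutadapt and the build mm10 without versions or roles, and splicing was compared with SpliceTrap (study's methods), which estimates exon inclusion. The values the authors deposited are positions and types of events, in 3 lists of 275, 269 and 262 lines. Not given in the sources used here is the listing threshold. It is also not stated which controls stood behind each list or whether samples came from separate cultures, so agreement between lists may be technical.

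Repeated lines (5, 4 and 5) were counted once, 1 line with an unreadable start was left out, and 1 was added to each start. Events were matched to exons of GENCODE M21 (GRCm38, the assembly of mm10). Transcript counts refer to protein-coding transcripts. A transcript skipped an exon when it had exons on both sides and none over it. Exons were numbered in the longest holding transcript by exon count, and their sequences come from the reference transcripts. The 7 genes and the gene list were chosen with earlier results of these data known, and the comparison with related genes was added after the exons had been seen. All 7 genes are named with every event, and the other genes of the list once if they had one. No statistical test was run, because the lists are already outcomes of a comparison. The sequence and position of the Mapt exon are not reported here, and it was left out of the comparison with related genes, which covered coding exons only. Matching was tested on simulated intervals. Python 3.11.15 and matplotlib 3.10.9 were used.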

Additional observations from a re-analysis of the deposited data

How the results depend on the processing

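Of 49 alternative values, 38 were classed as unmoved and 11 as moved. A count was classed as unmoved when it changed by no more than 1.5 times, so a fall from 9 exons to 6 without list 2 was unmoved. So was the fall in microtubule list genes with an event, from 17 to between 12 and 13 when a list was left out. The limit of 1.5 times applied to counts. The median exon length without list 2, 27 nt beside 33 nt, was classed as moved although it changed by less than that. Leaving out each list in turn gave 5 to 9 listed exons, 4 to 7 genes and 1 to 2 exons in more than 1 list. The median length was 27 to 33 nt, with 2 to 4 exons of at most 30 nt and 5 to 8 fully coding exons. From 4 to 6 exons had an equal-length relative (a setting added after the data had been seen). Each of these sets is part of the 9 exons, so cassette type and divisibility by 3 were fixed in advance. The lowest counts came without list 1, except the count in more than 1 list (lowest without list 2 or list 3) and the median (without list 2). Without list 1 or list 2, 5 fully coding exons and 4 with such a relative were left. Taken as given, with no 1 added to the start, 0 intervals matched. Other matching rules and identity limits of 50% and 70% moved no count by over 1.5 times. The motif search beside the exons was not run, since no genome sequence was used here. No paired analysis was possible because the lists hold no value for single samples and no test was run. The read depth behind each exon is unknown, and wrong calls cannot be told from right ones.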
